A study of Mus musculus with 8 samples.

Results

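A 200 kb stretch of mouse chromosome 4, chr4:43350001-43550000 in the mm9 assembly, was examined in liver DNA for differences in cytosine methylation between 2 inbred strains, B6 (C57BL/6J) and DBA (DBA/2J). The stretch holds Rusc2, Fam166b, Tesk1, Cd72 and Sit1, and it was chosen from the differences measured between the female parents, so those differences are described here without a test. Reduced representation bisulfite sequencing (RRBS), which reads the methylation of cytosines on MspI fragments, had been run on 8 untreated mice that were 16 weeks old and fasted for 16 h: a female and a male for each of the inbred strains B6 and DBA and for their reciprocal F1 crosses, BXD (B6 mother, DBA father) and DXB (DBA mother, B6 father). Of 3715 cytosines of the window with a read in any mouse, 3505 had 10 reads in at least 1 mouse and 222 had 10 reads in all 8. Between the female parents 2134 cytosines could be compared, out of 6831854 in the genome, and between the male parents 391, out of 1856140. Each group was 1 mouse, so intervals on a level cover the counting of reads only and not the spread between animals.

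Rusc2 encodes an adaptor protein with RUN and SH3 domains that binds small Rab GTPases. Its neighbour Tesk1 encodes a kinase that phosphorylates cofilin and so acts on actin filaments. Cd72 encodes an inhibitory co-receptor of B cells, and Sit1 a transmembrane adaptor of lymphocytes, while Atp8b5, which reaches into the window from the left, encodes a member of the flippases that move phospholipids across membranes. In mammals methylation sits mostly on cytosines followed by guanine (CG). CGs inside active genes tend to be methylated and CGs at active start sites tend to be free of it. Cytosines outside CG are written CHG or CHH, where H is any base but G, and they are rarely methylated in liver.

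The calls between the females lay in Rusc2, apart from 1 in Atp8b5. By the binomial rule of the study (10 reads in both mice, each level outside the exact 95% interval of the other, and a difference above 50 percentage points), 19 cytosines of the window differed between the female parents. Rusc2 held 18 of them, 11 in its coding exons, 6 in its introns and 1 in an untranslated part, and the other one lay in an intron of Atp8b5. Rusc2 also held 1061 of the 2134 cytosines compared and 131 of the 274 CGs. None of the cytosines compared in Fam166b (30), Tesk1 (127) or Sit1 (83) was called, and Cd72 had none that could be compared between the female parents outside its overlap with Tesk1 (chr4:43459334-43460936), whose cytosines are counted with Tesk1 and held 7 CGs compared, none called. Between Cd72 and Sit1 an intergenic CG (chr4:43470356), 1 of 57 intergenic CGs compared, had 38.7% of 124 reads in the B6 female and 0 of 197 in the DBA female. The B6 male had 50% of 74, and the BXD female, BXD male, DXB female and DXB male had 19.8, 36.0, 17.5 and 31.3%. The difference between the females stayed under the limit of 50 points. The nearest CGs compared on either side went the other way. The B6 and DBA females had 30.4 and 47.2% at chr4:43470339, and 77.5 and 88.9% at chr4:43470591. Over the genome the same rule called 0.0955% of the cytosines compared, a value given as background only, because this contrast chose the window.

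Of the 19 called cytosines, 15 were CGs out of 274 compared, and 14 of these were more methylated in B6 and 1 in DBA. The background over the CGs of the genome was 0.498% for calls higher in B6 and 0.0505% for calls higher in DBA. The other 4 were CHH out of 1334 compared, all higher in DBA, against 0.0278% of the CHG and CHH cytosines of the genome called in that direction. The calls nearest to the limit were at -53.1 points (chr4:43412742, B6 minus DBA) and 54.8 points (chr4:43428569), and the nearest cytosine under it, at 47.6 points, was an intron CG of Rusc2 (chr4:43436995) with 80.9% in the B6 and 33.3% in the DBA female. None of the 526 CHG cytosines compared in the window was called. Most CGs of the window were alike in both females: at 198 of 274 the levels lay within 10 points of each other, and the median absolute difference was 4.18 points.

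**Figure D1:**
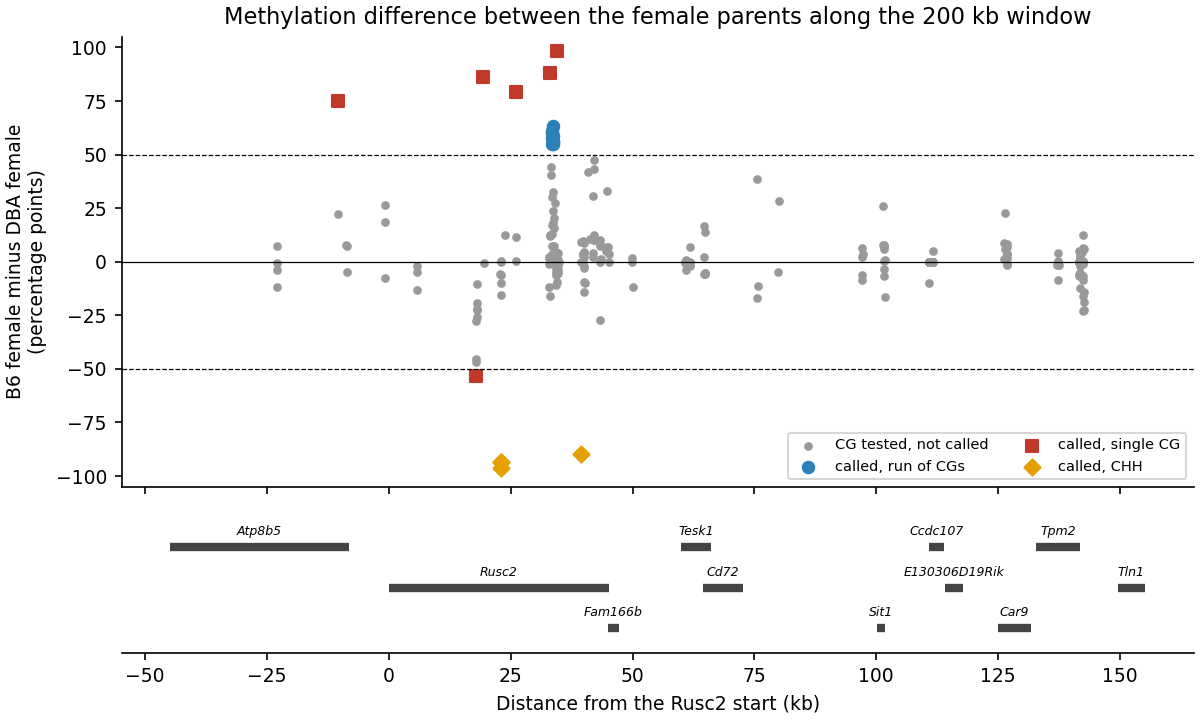
Difference in methylation level between the B6 and the DBA female (percentage points, B6 minus DBA) at each CG compared, and at the called CHH cytosines, against the distance from the Rusc2 start in kb; bars below show the genes and dashed lines the 50 point limit. The called cytosines sit between -10.51 and 39.38 kb from the Rusc2 start, and the genes to the right of Rusc2 hold no call between the females. In E130306D19Rik and Tln1 no cytosine could be compared, and in Cd72 only those in its overlap with Tesk1.

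The called cytosines fell into 3 kinds, and the sequences below, from the mm9 reference, show where each lies. The first kind is a run of 9 CG cytosines in 8 CG pairs within 242 bases (chr4:43428349-43428590) of exon 2 of Rusc2, whose coding part is 2023 bases long (chr4:43427568-43429590). The run is shown from chr4:43428340-43428600 on the strand of the gene, with its 8 called CG pairs in capitals.

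Rusc2 exon run: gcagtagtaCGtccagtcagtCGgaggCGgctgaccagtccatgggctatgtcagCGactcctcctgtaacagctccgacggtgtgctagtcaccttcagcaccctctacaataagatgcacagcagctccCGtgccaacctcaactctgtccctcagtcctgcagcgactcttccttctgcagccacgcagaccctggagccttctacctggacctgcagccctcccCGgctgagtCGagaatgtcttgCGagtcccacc

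The second kind is the single CG, called without another call of the same direction within 100 bases. All but the one in the untranslated part of Rusc2 are shown on their own strand with 20 bases to either side of the cytosine and the CG in capitals, because the calls differ in their neighbourhood: the first from the Atp8b5 intron (chr4:43384319-43384359, plus strand), then from Rusc2 an intron CG that was higher in DBA (chr4:43412722-43412762, plus), an intron CG (chr4:43420935-43420975, plus) and 2 CGs of exon 2 that flank the run (chr4:43427821-43427861 and chr4:43429399-43429439, both minus), and last the intron of Cd72 (chr4:43465630-43465670, minus).

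Atp8b5 intron CG: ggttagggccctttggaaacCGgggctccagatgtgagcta
Rusc2 intron CG higher in DBA: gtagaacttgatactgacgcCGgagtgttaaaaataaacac
Rusc2 intron CG higher in B6: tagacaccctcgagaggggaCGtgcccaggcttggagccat
Rusc2 exon CG before the run: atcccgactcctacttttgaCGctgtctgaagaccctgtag
Rusc2 exon CG after the run: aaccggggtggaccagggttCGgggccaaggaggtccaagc
Cd72 intron CG: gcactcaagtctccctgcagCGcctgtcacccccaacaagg

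The third kind is the CHH cytosine in an intron of Rusc2. The called cytosine and the base after it are in capitals. That base is not G, which places the cytosine outside CG, and the next base is not G either, which makes it CHH. The base in capitals is T in sequence a (chr4:43417772-43417812, plus strand) and A in b, c and d (chr4:43417839-43417879, chr4:43417871-43417911 and chr4:43434207-43434247, all minus).

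Rusc2 intron CHH a: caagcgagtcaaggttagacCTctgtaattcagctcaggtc
Rusc2 intron CHH b: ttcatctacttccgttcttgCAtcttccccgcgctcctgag
Rusc2 intron CHH c: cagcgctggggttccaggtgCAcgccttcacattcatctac
Rusc2 intron CHH d: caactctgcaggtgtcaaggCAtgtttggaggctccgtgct

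Across the run in exon 2 the B6 female was highly methylated and the DBA female was not. The 9 levels ranged from 78.0 to 98.7% in the B6 female (mean 89.4% ± 7.85, SD over the 9 cytosines of 1 mouse, 32 to 76 reads each) and from 19.2 to 43.9% in the DBA female (mean 31.3% ± 8.86, 44 to 114 reads). No value of the DBA female reached the lowest value of the B6 female, as the choice of the cytosines requires. No CG of the run had 4 or more reads with a tag of either strain in an F1 mouse, so these levels could not be divided between chromosomes there. Inside the run 2 further CGs were compared and not called (chr4:43428507 and chr4:43428528), with 94.7% at both in the B6 female and 62.3 and 71.1% in the DBA female. The run lies on adjacent MspI fragments of 254 and 256 bases and was read from both strands, and neighbouring CGs of 1 fragment and strand share their reads.

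The parents of the other sex could be read at few of these CGs. In the B6 male the CG at chr4:43428569, on the minus strand, was methylated in 43 of 44 reads (97.7%, exact 95% interval 88.0 to 99.9%), like the 98.7% of the B6 female, and the uncalled CGs at chr4:43428507 and chr4:43428528 had 97.7 and 95.5%. The DBA male had at most 3 reads at any CG of the run. Added over CGs that share reads, 2 of its 12 counts were methylated, both at chr4:43428569. The low level of the DBA female in the run was therefore not read in another DBA animal at 10 reads.

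In the F1 mice the run was closer to the B6 female than to the DBA female. At the 6 CGs with 10 reads in both female parents, the BXD female and both DXB mice, the means were 89.2% in the B6 and 32.2% in the DBA female, 76.1% in the BXD female, 83.2% in the DXB female and 80.9% in the DXB male, where the mean of the female parents was 60.7%. Single levels ranged from 62.7 to 89.8% in the BXD female, from 75.0 to 90% in the DXB female and from 64.7 to 95.5% in the DXB male. All 3 mice thus lay above the mid-parent by 15.5, 22.6 and 20.3 points on average. The BXD male had at most 8 reads at a CG of the run, with 26 of 32 counts methylated when added over CGs that share reads. No test was made of this distance, whose parental levels chose the sites. The 3 libraries differed from the other 5 in the window: 10.95 to 11.4% of their cytosine reads carried a tag, against 17.5 to 32.7%, and 99% of their covered cytosines lay within 673 to 704 bases of the start of their fragment, against 252 to 318. Over the promoter CGs of hepatocyte genes covered in each mouse, the median over genes was 36.2, 36.7 and 29.4% in the BXD female, DXB female and DXB male, 15.97 to 19.9% in the 4 parents and 23.2% in the BXD male. These medians rest on unlike CGs: Hnf4a had 3 CGs covered in each of the 3 mice and 7 to 10 in the others that had any, and the DBA male had 2 genes. Apob, at 26.9% in the DXB male and 28.7% in the B6 male, did not follow that order. Neither did Apoh, at 2.26% in the BXD female, 1.83% in the DXB female and 1.29% in the DXB male, against 2.87% in the B6 male. Fgb and Hnf4a were highest in these 3 mice. The part of these differences in the levels of the run was not tested.

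Just past the run, the level fell in both females, and on the minus strand the B6 female and the B6 male differed. At 3 CGs on the minus strand (chr4:43428815, 43428822 and 43428825) the B6 female had 2.13, 4.35 and 10.6% of 46 to 47 reads methylated, and the DBA female 0, 0 and 3.08% of 65 reads. The B6 male had 66.7, 94.4 and 94.4% of 18 reads at the same CGs. The 3 F1 mice with 10 reads on that strand lay between the B6 female and the B6 male, with 45.3, 57.3 and 68.0% in the BXD female, 45.5, 49.1 and 50.9% in the DXB female and 58.3, 72.9 and 75.0% in the DXB male. The DBA male had 3 reads here and the BXD male 2, all unmethylated. On the plus strand of the last CG pair (chr4:43428824) the picture was another one: the B6 female had 45.5% of 77 reads, the DBA female 25% of 140, the BXD female 37.7%, the BXD male 34.8%, the DXB female 45.5% and the DXB male 71.9%, and the B6 male had 3 reads. These 3 CGs were called between the B6 female and the B6 male, as was another CG in an intron of Rusc2 (chr4:43438094, 18.2% of 11 reads and 72.0% of 25).

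All 4 of these calls, out of 1321 cytosines compared, were higher in the male, where the background between the B6 mice was 0.072% of the autosomal cytosines compared. Those just past the run lie side by side on the minus strand with nearly the same read counts, so they are not separate observations. Inside the other strains and crosses the window held fewer calls: 0 of 445 between the DBA mice (background 0.0617%), 1 of 1188 between the BXD mice (0.0367%) and 0 of 1385 between the DXB mice (0.00944%). The BXD call was an intron CG of Rusc2 (chr4:43411669) with 33.3% of 12 reads in the female and 84.4% of 32 in the male. These comparisons set 1 mouse against 1 mouse, so sex and animal cannot be told apart.

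**Figure D2:**
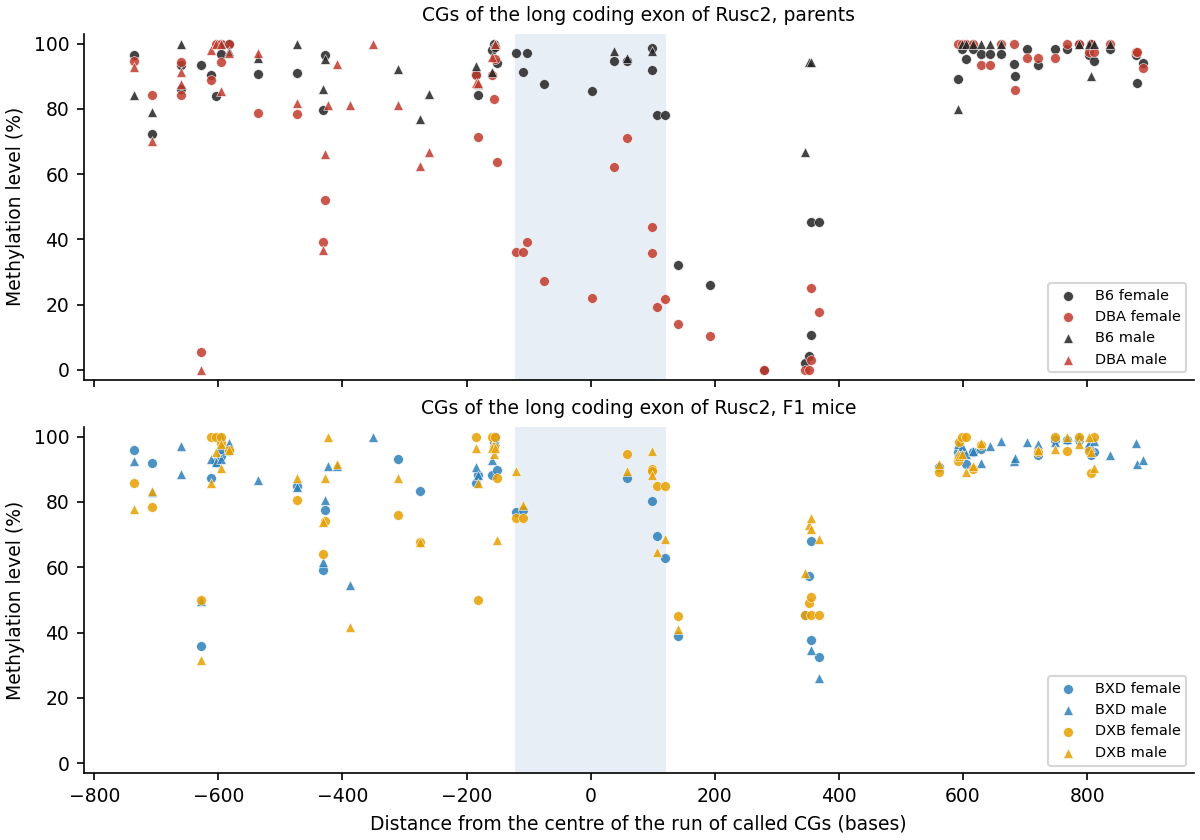
Methylation level (%) of the CGs of the long coding exon of Rusc2 with at least 10 reads, in the parents (upper panel) and the F1 mice (lower panel), against the distance in bases from the centre of the run, which is shaded. At the 9 called CGs of the shaded run the DBA female lies between 19.2 and 43.9%, below every other mouse shown at them, and past it the B6 female falls to 2.13% where the B6 male has 66.7%.

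Farther from the run, most of the exon was methylated in both strains. On the 174 bases (chr4:43429062-43429235) that follow the low stretch, the CGs of the plus strand averaged 95.7% in the B6 and 98.3% in the DBA female, 94.8% in the BXD female, 95.7% in the BXD male, 96.0% in the DXB female and 93.5% in the DXB male, over 5 to 8 CGs each. Before the run, 3 CGs of the minus strand (chr4:43428159-43428313) averaged 91.0% in the B6 and 84.1% in the DBA female, 90.6% in the B6 male and 90.7% in the DBA male. Nearer to the exon's start 2 adjacent CGs of the minus strand differed by less. At chr4:43428038 the B6 female had 79.5% of 88 reads, the B6 male 86.0% of 43, the DBA female 39.1% of 23 and the DBA male 36.6% of 71, with 59.2 to 73.8% in the F1 mice. The difference between the males was 49.4 points there, and the DBA levels were within the range of the run. At chr4:43428042 the B6 female had 96.6% and the DBA female 52.2%, with 95.3% in the B6 male and 66.2% in the DBA male, a difference below the limit of 50 points in both sexes.

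Altogether 12 of the 19 calls between the females had another call of the same direction within 100 bases, where 25.2% of the calls in the genome had one. They were the 9 CGs of the run and 3 of the CHH cytosines. The share in the genome is background only, because this contrast chose the window, and neighbouring calls on the same fragment and strand share reads.

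The single CGs behaved otherwise than the run: in 4 of 6 the DBA female had 0 to 5.56% while the neighbouring CGs covered in both females were methylated in both. The CG after the run (chr4:43429419, minus strand) had 98.5% of 67 reads methylated in the B6 female, 94.9% of 39 in the B6 male and 0 of 40 in the DBA female, which allows up to 7.5%. The DBA male had 5 reads, all unmethylated. The 7 other CGs within 100 bases had 83.7 to 98.5% in the B6 female and 89.2 to 100% in the DBA female. The F1 mice had 44.6% (BXD female), 41.8% (BXD male), 53.1% (DXB female) and 40.0% (DXB male), between the parents.

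The CG before the run (chr4:43427841, minus strand) had 93.5% of 31 reads in the B6 female and 5.56% of 18 in the DBA female. All 6 reads of the B6 male were methylated and none of the 48 of the DBA male, which allows up to 6.25%. The 9 CGs within 100 bases ranged from 72.4 to 100% in the B6 female and from 78.8 to 100% in the DBA female. Levels in the F1 mice were 36.0, 49.5, 50 and 31.6% for the BXD female, BXD male, DXB female and DXB male.

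The intron CG of Rusc2 at chr4:43420955 had 80.3% of 66 reads in the B6 and 1.11% of 90 in the DBA female, 91.7% of 12 in the B6 male and 39.2% of 51 in the BXD male, and the other mice had no reads. Its neighbours in the DBA female stood at 72.2 and 73.3%. The CG in the untranslated part of Rusc2 (chr4:43414247, minus strand) had 86.4% of 22 reads in the B6 female, 0 of 12 in the DBA female, which allows up to 25%, and 52.8% of 36 in the BXD male. The only other CG within 100 bases covered in both females had 90.9% in B6 and 91.7% in DBA.

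In Atp8b5 the intron CG at chr4:43384339 was the one called in both pairs of parents. The B6 female had 83.1% of 83 reads and the DBA female 8.0% of 25. The B6 male had 74.4% of 82 (exact 95% interval 63.6 to 83.4%) and the DBA male 19.5% of 87 (11.8 to 29.4%), a difference of 54.9 points. Levels of the F1 mice were 64.7, 48.3, 51.2 and 36.6% in the BXD female, BXD male, DXB female and DXB male, all between the parents.

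The single CG higher in DBA stood apart from the others (chr4:43412742, intron of Rusc2). The B6 female had 12.3% of 81 reads, the B6 male 24.5% of 49 and the DBA female 65.5% of 142. The F1 mice had 45.3% (BXD female, 150 reads), 20% (BXD male, 20 reads), 39.6% (DXB female, 96 reads) and 29.4% (DXB male, 85 reads). The 3 CGs that followed within 100 bases moved the same way below the limit, at 6.17 to 8.64% in the B6 female and 33.8 to 55.6% in the DBA female. Farther along the same MspI fragment, the CGs compared on the minus strand were also higher in DBA. They had 60.6 to 68.2% in the B6 female and 80 to 90.9% in the DBA female. The DBA male had 2 reads, both methylated.

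The 4 CHH calls had no methylated read in the B6 female, of 28 to 57 reads, and 89.6 to 96.1% in the DBA female, of 30 to 135 reads. Counts of 0 allowed up to 10.7% at the least covered (28 reads) and 5.26% at the best (57 reads). At chr4:43434227, the one with reads in all 4 F1 mice, the B6 male had 0 of 21 reads, the BXD female 53.0%, the BXD male 73.5%, the DXB female 72.5% and the DXB male 58.5%. Of the reads of the BXD male there that carried a strain tag, 12 were assigned to the B6 and 54 to the DBA chromosome, so its level weighs the DBA chromosome more. The 3 others lie on 1 MspI fragment of 234 bases and were read among the F1 mice in the BXD male alone, at 55.2, 38.5 and 41.0%. Bisulfite sequencing reads a C that is changed to T as an unmethylated C, and the context of a cytosine was taken from the reference. Whether the DBA genome differs in sequence at the single CGs or beside the CHH cytosines was not tested.

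**Figure D3:**
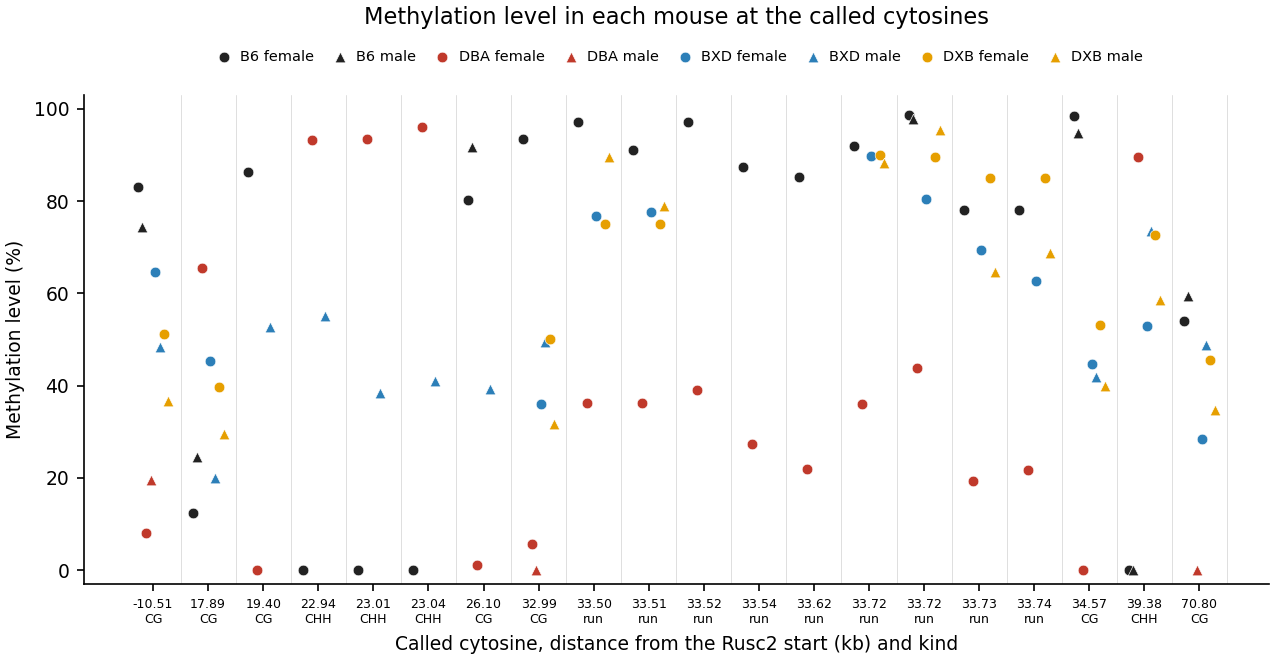
Methylation level (%) in each mouse with at least 10 reads, at the 20 cytosines called between the female or the male parents, ordered along the chromosome and labelled by distance from the Rusc2 start in kb and by kind; colours show strain or cross, circles females and triangles males. In the run the F1 mice lie near the B6 female (62.7 to 95.5%), whereas at the single CGs higher in B6 they lie between 28.4 and 64.7%.

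A tag of either strain was carried at the position by 5 of the 15 called CGs and all 4 called CHH cytosines, against 74 of the 274 CGs compared (27.0%) and 506 of the 1860 other cytosines (27.2%). Over the genome 5.71% of the CGs compared and 50.2% of the called CGs had tagged reads. All 9 CGs of the run and the CG that was higher in DBA lacked tags. The called CGs had a median of 8 CGs in the 201 bases around them, as did all CGs compared in the window.

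The male parents, a contrast other than the one that chose the window, were a thin check. Earlier results of these data were known when the window and its genes were chosen. Of the 19 calls between the females, 1 had 10 reads in both males, where 20.7% of such calls in the genome had them. That one, in Atp8b5, had the same direction and was called; over the genome 86.5% of the calls that could be compared had the same direction. With 5 reads, 3 of the 19 could be compared (the Atp8b5 CG and the CGs on either side of the run), and all 3 had the same direction. Taken alone, the B6 male had 10 reads at 6 of the calls, and the DBA male at 2. At all of these each male lay on the same side of the mean of the female parents as the female of its strain. The share over the genome was not computed for a single male, so these counts have no background.

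Of the 391 cytosines compared between the males, 2 were called, against 0.101% in the genome. The one in Atp8b5 is given above, and the other was the intron CG of Cd72 (chr4:43465650, minus strand), with 59.5% of 126 reads in the B6 male and 0 of 13 in the DBA male, which allows up to 23.1%. The DBA female had a single read there and could not be compared. The B6 female had 54.0% of 139 reads, and the F1 mice had 28.4% (BXD female), 48.8% (BXD male), 45.7% (DXB female) and 34.6% (DXB male). In the BXD male 126 of the 129 reads were assigned to the B6 chromosome, so its level is nearly that of the B6 chromosome alone. The nearest CG covered in both males (chr4:43465691) had 50% in the B6 male and 61.5% in the DBA male.

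Reads with a SNP had been assigned by the study to a B6 or DBA chromosome of origin, which let the alleles be compared inside the F1 mice. With the female parents left out, the B6 male and the 4 F1 mice gave 5 B6 chromosome sets and the DBA male and the F1 mice 5 DBA sets. The window held 93 cytosines at which 4 or more sets of either strain had 10 sorted reads, and 3 of them passed the two-sided exact permutation test at 0.05 with means over 50 points apart. The background in the genome was 1.69% of 62602 cytosines. All 3 were higher on B6 chromosomes. After Benjamini-Hochberg adjustment over all cytosines so tested none passed (adjusted p = 0.576 for each permutation test), and the smallest p that 5 against 5 sets can give is 0.00794. Sets from the same F1 mouse share an animal and a library, and with B6 and DBA chromosomes paired within the 4 F1 mice no site can pass, the smallest p of the exact sign-flip permutation test being 0.125.

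At the CG after the run (chr4:43429419) the B6 sets averaged 94.8% ± 1.80 (SD, n = 5) and the DBA sets 0% in all 4 (exact permutation p = 0.0159, the smallest possible). In the F1 mice the B6 chromosomes ranged from 93.0 to 97.7%, and none of the sorted DBA reads was methylated in any of the 4. In the intron of Cd72 (chr4:43465650) the B6 sets averaged 58.9% ± 8.81 (SD, n = 5) and the DBA sets 0% in all 4 (exact permutation p = 0.0159). The B6 chromosomes of the F1 mice had 50% in both BXD mice, 65.6% in the DXB female and 69.2% in the DXB male.

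At the Atp8b5 CG (chr4:43384339) the B6 sets averaged 75.1% ± 9.18 and the DBA sets 24.6% ± 12.8 (SD, n = 5 each, exact permutation p = 0.00794). In the F1 mice the B6 chromosomes had 90.9, 67.5, 72.2 and 70.6% and the DBA chromosomes 20, 21.2, 47.1 and 15%, in the order BXD female, BXD male, DXB female and DXB male. Groups did not overlap, which a p at its smallest possible value requires, and the difference of 50.6 points was close to the limit. It fell to 49.3 points without the DBA male or without the DXB male and to 45.5 points without the BXD female.

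The CG before the run (chr4:43427841) had too few sorted reads for that test. Its B6 chromosomes in the F1 mice had 81.8 to 100% and its DBA chromosomes 0 to 7.69%, of 5 to 55 sorted reads each. The other tagged calls had at least 10 sorted reads of both strains in 1 F1 mouse, the BXD male: 95 and 0% on its B6 and DBA chromosomes at chr4:43414247, and 71.4 and 0% at chr4:43420955. At the 4 CHH cytosines its B6 chromosomes had 0% and its DBA chromosomes 88.9 to 100%. At the tagged calls with reads of both kinds the F1 chromosomes thus lay nearer to the parents of their strain, except the DBA chromosomes of the DXB female at the Atp8b5 CG (47.1%).

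**Figure D4:**
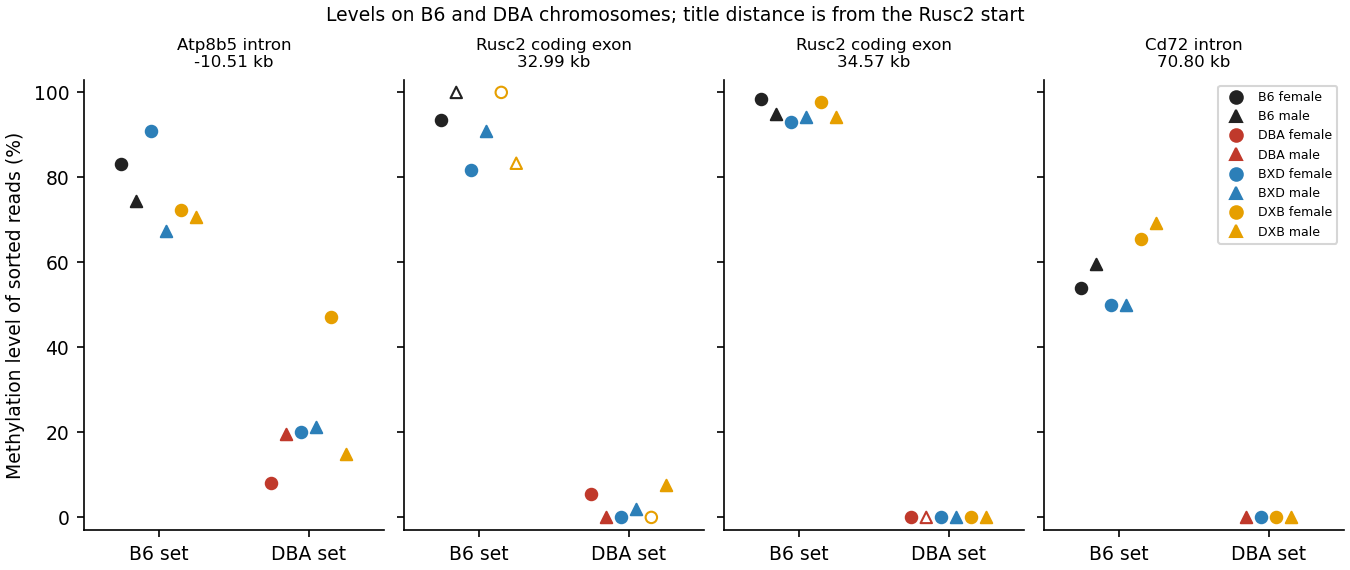
Methylation level (%) of reads assigned to B6 or DBA chromosomes in each mouse, at 4 tagged CGs whose distance from the Rusc2 start is in the panel title; open symbols have fewer than 10 sorted reads. The B6 and DBA sets do not overlap in any panel. The parents drawn include those whose difference called the cytosine, so this gap is a description only. At the Atp8b5 CG the DBA set of the DXB female (47.1%) lies apart from the other DBA sets (8.0 to 21.2%, the 8.0% being the DBA female).

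Over the female calls with 10 reads (10 or 11 per F1 mouse), the F1 level lay 8.61 ± 6.25 points (SD, n = 4) above the mean of the female parents in methylation, with 9.84 in the BXD female, 0.635 in the BXD male, 15.8 in the DXB female and 8.14 in the DXB male. The run accounted for 6 of the 11 cytosines in the BXD female and the DXB mice and for none in the BXD male. Since some of these cytosines were higher in B6 and others in DBA, this distance has no single strain direction, and the position from the DBA female (0%) to the B6 female (100%) is given by kind. In the run it averaged 77.2% of the way in the BXD female, 89.7% in the DXB female and 85.6% in the DXB male. At the single CGs it was 48.3% in the BXD female, 56.8% in the BXD male, 52.7% in the DXB female and 44.0% in the DXB male. At the CHH cytosine chr4:43434227, the only one read in the other 3 mice, it was 40.9% in the BXD female, 19.1% in the DXB female and 34.7% in the DXB male. The BXD male averaged 43.8% over the 4 CHH cytosines, but these did not lie on 1 side: those at chr4:43417859 and chr4:43417891 stood nearer to the B6 female and the others nearer to the DBA female.

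Apart from the calls, most CGs of Rusc2 were alike in both females. Of the 117 CGs compared and not called, 77 differed by up to 10 points and 19 by more than 20, of which 12 were higher in B6 and 7 in DBA. Their differences (B6 minus DBA) ranged from -47.0 to 47.6 points with a median of 1.43, and the means were 69.8% in the B6 and 67.2% in the DBA female. The CGs within 500 bases of the Rusc2 start reached 10 reads in 3 mice only. Their mean levels were 0.534% in the DBA male (25 CGs), 0.909% in the BXD female (10 CGs) and 0.452% in the BXD male (17 CGs).

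In Tesk1 the 22 CGs compared differed by -5.79 to 16.5 points and averaged 29.0% in the B6 female and 28.6% in the DBA female. The medians over the same CGs were 0 and 0.97%, and the 7 that lie in the overlap with Cd72 averaged 88.7 and 87.1%. Sit1 had 10 CGs compared, all within 500 bases of its start, at 66.2% in the B6 female and 63.2% in the DBA female, with differences of -16.5 to 26.2 points. The start of Sit1 had a mean of 77.7% in the B6 male, 65.3% in the BXD female, 50% in the BXD male, 47.2% in the DXB female and 53.3% in the DXB male, over 3 to 6 CGs each. These CGs are only part of the 10 of the female parents and not the same in every mouse. The 10 levels of the B6 female ranged from 39.8 to 90.5%, so means over unlike CGs cannot be set against each other. Fam166b had 2 CGs compared, at 97.4 and 95.7%. In Cd72 the 2 CGs compared between the males differed by -11.5 and 59.5 points.

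Signs of library and tissue were looked at beside these values. In the window, 99.7% or more of the tagged cytosine reads of both B6 mice carried the B6 tag and 1.01% or less of those of both DBA mice did, with 49.1 to 58.0% in the F1 mice. Mean reads at cytosines with at least 10 ranged from 41.5 to 80.6 among the 8 libraries. Hepatocyte marker genes had covered promoter CGs in 4 of 10 (Apob, Apoh, Fgb and Hnf4a), in the DBA male in 2, and their median levels are given above beside the run. The part of a different mix of cells in the levels of Rusc2, Cd72 or Sit1 was not tested, and in bulk liver a different mix and a different level within a cell type cannot be told apart.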

How the data were processed

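RRBS libraries of 8 livers were analysed, 1 mouse of each sex from B6, DBA, BXD and DXB. As the study's methods describe, the authors cut DNA with MspI, selected fragments by size, aligned reads to mm9 with BS Seeker, kept unique alignments, called SNPs from pooled reads without C/T changes and sorted reads by SNP. Trimming, the aligner version and the handling of duplicates were not given in the sources used here. For each cytosine, mouse and read class (B6, DBA, not polymorphic, unknown) the deposited values were raw counts of methylated and unmethylated reads, and the level as a fraction from 0 to 1. The deposited tables of the authors' own comparisons (mean fractions, p-values and differences) were not used.

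Counts of all classes were added, and levels were computed from them as percentages. Both strands of a CG were separate sites. The rule of the study (at least 10 reads, exact Clopper-Pearson 95% intervals, over 50 points) was run on all cytosines of the genome, with the window's rows taken from it. Fisher's exact test and chromosome set tests were run likewise, and all were tested on simulated data. Chromosome sets were compared by a two-sided exact permutation test, with Benjamini-Hochberg adjustment over all cytosines tested. Comparisons within a strain were added after values were seen. The context of all 3715 cytosines of the window matched the NCBIM37 reference, and genes came from GENCODE for that assembly. The text names each cytosine of the window called between the female or the male parents, then those called between chromosome sets, and gives others by range and count. The uncalled CGs named between Cd72 and Sit1, beside the run, near the exon start and past the run were picked after their values were seen. So were the minus strand CGs on the fragment of the single CG higher in DBA. The window, its genes and the marker lists were chosen with earlier results of these data known. Values of the lymphocyte marker list are not reported here. Alternatives covered read minimum, difference, test, read classes, strands, clustering distance and mice left out. PCR reads carry no molecular identifiers, so intervals and limits for counts of 0 (3 counts) cover counting error only. Python 3.11.15 was used, with numba 0.67.0 and numpy 2.4.6 for counts, scipy 1.17.1 for intervals, pandas 2.3.3 for tables and matplotlib 3.10.9 for plots.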

Additional observations from a re-analysis of the deposited data

Results flagged for a closer look

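At the called cytosines, 11 groups of 4 to 6 levels (F1 mice, or chromosome sets of 1 strain) were searched for a value whose gap to the nearest of the others was large against the range of its group. Chance alone gives about 1 such group in 20. One was found: at the intron CG of Atp8b5 (chr4:43384339) the DBA chromosomes of the DXB female were methylated at 47.1% of 17 sorted reads, while the other 5 DBA sets had 8.0 to 21.2%. Its gap made up 0.663 of the range, above the limit of 0.625 for 6 values. The lowest of the 6 values, 8.0%, was that of the DBA female, whose low level helped to choose the site, so the gap is a description only. Without the DXB female the B6 sets exceeded the DBA sets by 56.9 points there, against 50.6 points with her.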

How the results depend on the processing

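The 19 calls between the female parents numbered 17 with 20 reads and 19 with 5 reads or by Fisher's exact test. With both strands of a CG added, which leaves CG pairs only, 14 pairs were called. The count was 32 with a difference above 30 points and 10 with untagged reads only, which by construction leave out the tagged CGs and CHH cytosines. Between the male parents the 2 calls became 4 with 5 reads, 1 with 20 reads and 0 with untagged reads, and the 1 female call with the same direction in the males became 3 with 5 reads, 3 with a difference above 30 points and 0 with untagged reads. Clustered calls numbered 8 to 12 under other distances, read minimums and added strands, and 21 with a difference above 30 points. The 3 chromosome set calls became 1 with the sets of the F1 mice alone, where the Atp8b5 difference was 49.5 points and the Cd72 site had only 3 DBA sets. Leaving out 1 mouse gave 0 to 3 calls, 0 without the BXD female or the DXB male and 1 without the DBA male or the DXB female. Fewer sites then kept 4 sets of each strain (26 without the BXD female, and 26 without either DXB mouse), which removed calls whose difference stayed at 56.3 to 95.2 points. The F1 distance from the mid-parent stayed between 6.21 and 11.3 points when 1 F1 mouse was left out. Pairing the B6 and DBA chromosomes within each F1 mouse, an alternative chosen after seeing the data, gave 0 calls, since 4 pairs cannot give p below 0.125. The paired difference was 94.7 ± 2.07 points (SD, n = 4) after the run and 49.5 ± 19.1 points in Atp8b5, and Cd72 had 3 pairs. The run in exon 2 could not be compared between the male parents, since the DBA male had at most 3 reads at any CG there.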
